A study of Mus musculus with 20 samples.

Results

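Heme is built from glycine and succinyl-CoA by a chain of enzymes that begins and ends in the mitochondrion, and it is opened again by heme oxygenase. The genes described here are 9 members of that pathway, chosen by symbol and not by their values: Alas1, Alas2, Alad, Uros, Urod, Cpox, Ppox and Fech for synthesis, and Hmox1 for breakdown. They are 9 of 46095 gene symbols in the count table, and all 9 passed the low-count filter that left 14440 genes for testing. The first enzyme, 5-aminolevulinate synthase, sets the pace of the chain. The liver uses the housekeeping form, ALAS1, whose gene is held down by heme itself and raised by fasting signals and by drug-sensing nuclear receptors, since much liver heme goes into cytochromes P450. Red cell precursors use the erythroid form, ALAS2. In liver, heme oxygenase 1 is known from Kupffer cells, which break down the heme of old red cells, and from the response to oxidative stress.

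RNA from whole livers of 20 mice was sequenced, 5 in each of 4 groups, to examine the role of Pck1, a gluconeogenic enzyme, in diet-induced non-alcoholic steatohepatitis (NASH). The groups were WT mice on a chow diet (WT chow), WT mice on a NASH diet (WT NASH), and Pck1-cKO mice, in which Pck1 is deleted in the liver, on a chow diet (KO chow) or a NASH diet (KO NASH). All mice were 31 to 33 weeks old and had been on their diet for 24 weeks, per the labels. The sources used here do not give the Cre driver or the strain. In whole liver, fewer cells of a type and less RNA per cell cannot be told apart.

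Library totals ran from 9958935 to 20601955 counts, and levels are given as CPM, counts scaled to a common library size. Pck1 ranged over 300.4 to 542.2 CPM in KO NASH and 457.8 to 860.9 CPM in KO chow, below the 1707 to 4641 of WT chow and the 1701 to 2975 of WT NASH. The 8 hepatocyte markers summed to 55700 to 135000 CPM, and none of them was called in any comparison. The labels give no sex, and it was read from Y-linked counts. By that reading the female mice were 4 of WT NASH (all but replicate 4), replicates 3 and 5 of KO chow and replicate 2 of KO NASH, 7 in all, and the other 13, WT chow among them, were male. In 6 libraries short genes were over-represented, with a slope of relative log2 CPM on log2 gene length of -0.343 to -0.247. They were replicates 4 and 5 of KO chow, 3, 4 and 5 of WT chow and 4 of WT NASH, and the remaining 14 had slopes of 0.01 to 0.194. KO NASH replicates 1 and 5 were the most alike pair within a group, with a median absolute log2 difference of 0.155 per gene against 0.214 for the next pair.

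The 250 bases upstream of the RefSeq starts were searched on both strands for AGGTCA (a nuclear receptor word), AGATAA (the GATA word, known from erythroid promoters), CACGTG (the E-box) and TGACNNNGC (the core of the NRF2 element). RefSeq promoters on GRCm38.p6 matched 7 of the 9 genes, with 10 entries. The stretch of Alas2 is shown because this gene was the member that separated by sex and the 1 of the 7 searched with the erythroid word. It ends at the base before the start that GENCODE M21 gives, and capitals mark the words found.
Alas2, chrX:150547167-150547374, plus strand: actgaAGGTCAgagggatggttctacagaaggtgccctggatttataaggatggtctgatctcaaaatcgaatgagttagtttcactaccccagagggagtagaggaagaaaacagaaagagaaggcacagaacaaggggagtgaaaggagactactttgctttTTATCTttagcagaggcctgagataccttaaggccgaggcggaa
The GATA word stood on the minus strand of Alas2 at position -86 from the RefSeq start, where the plus strand reads TTATCT, and AGGTCA at -245. Of all RefSeq promoters of this length, 9.99% held the GATA word and 14% held AGGTCA. The E-box stood at -28 and -105 of the 2 Alad windows, at -49 in Urod and at -250 in 1 of 2 Uros windows, and 6.02% of all promoters held it. The NRF2 core was in 10.2% of all promoters and in none of these 10 windows, which leave out Hmox1 and Fech. Neither Alas1 window held any of the 4 words, and the same held for Cpox and Ppox. A match is a run of letters and was not tested for binding.

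Per length of exon, Alas1 was the most abundant of the 9, with a median RPKM (CPM per kilobase of exon) of 103.7 over the 20 libraries. Alad followed at 36.0, Hmox1 at 22.4, Cpox at 21.5, Urod at 19.8, Alas2 at 15.0, Fech at 9.55, Uros at 4.52 and Ppox at 2.83 RPKM. The ranges of all neighbours in this order overlapped over the libraries. Lengths are those of all annotated exons in GENCODE M21, which for Fech come to 13838 bases.

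**Figure D1:**
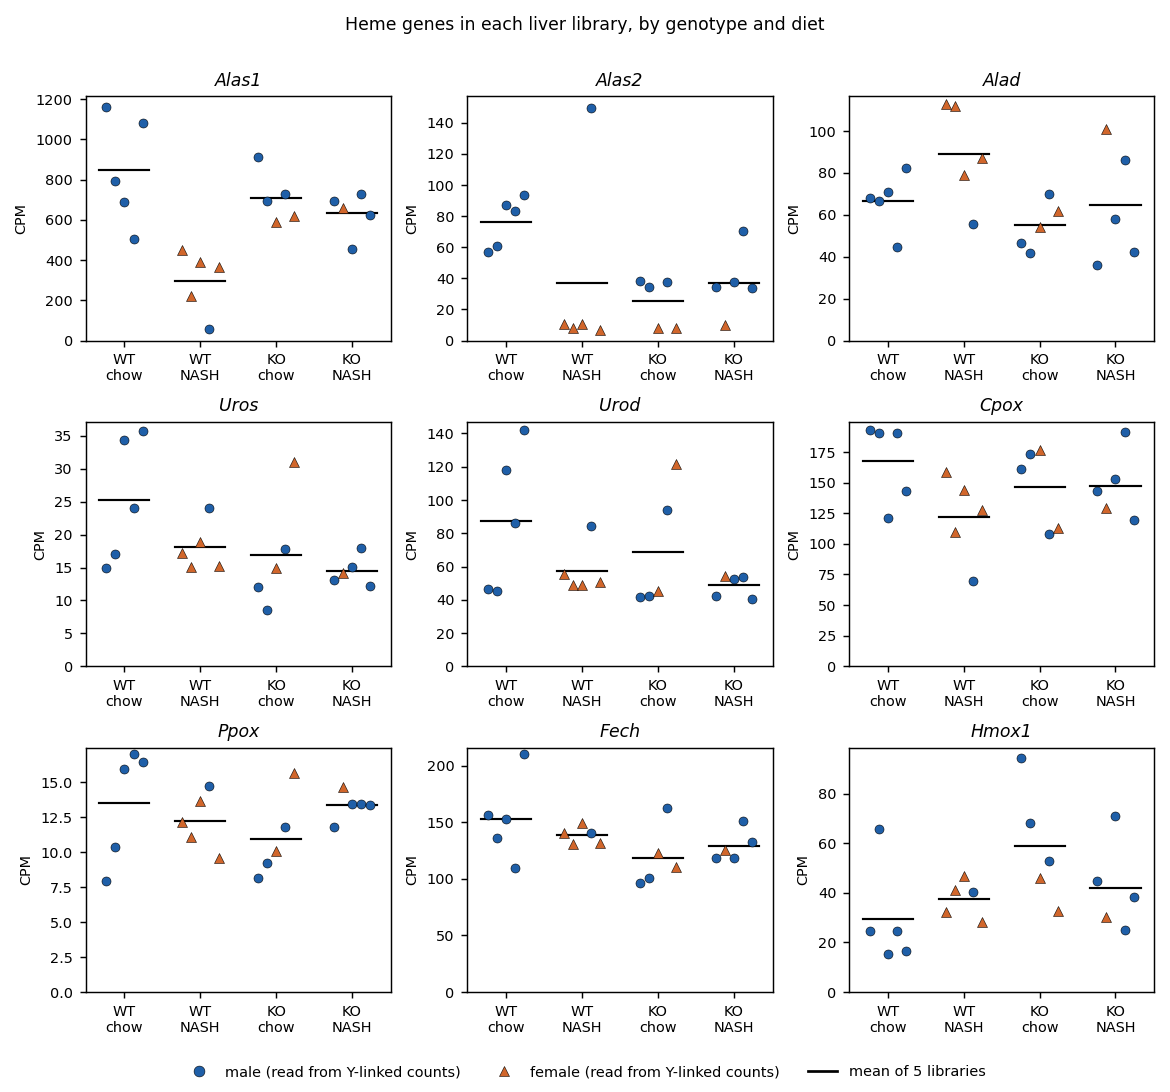
Level of each heme gene (CPM, y axis from 0) in the 20 liver libraries by group (x axis), 5 libraries a group; circles are male and triangles female libraries, and the line is the mean of 5. All 5 WT NASH libraries lie below all WT chow libraries for Alas1, and for Alas2 every female library (6.52 to 10.5 CPM) lies below every male one (33.7 to 150 CPM).

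Alas1 (ENSMUSG00000032786.16, chr9:106233455-106248654, minus strand, GRCm38) fell on the NASH diet in WT liver, where the test called it, and lay within overlapping ranges in KO liver, where it did not. The interaction between diet and genotype was not called either. In WT chow it was at 1160, 794, 689, 506 and 1080 CPM in replicates 1 to 5. In WT NASH it was at 452, 223, 390, 57.7 and 364 CPM. All 5 WT NASH libraries lay below all 5 WT chow libraries, with means of 845.7 ± 272.2 CPM on chow and 297.6 ± 158.2 CPM on the NASH diet (SD, n = 5 each). On the log2 scale this was a change of -1.51 (SE 0.37, edgeR adjusted p = 0.0207), or 0.352 times the chow level. Alas1 was the 1 member called of 9 in this comparison, where 5.93% of all tested genes were called and 3.25% were lower without overlap. The call was lost with sex as a term (log2 fold change -1.88, edgeR adjusted p = 0.0929), with only the 2 groups in the fit (edgeR adjusted p = 0.105), and without WT chow replicate 5 (0.0555) or WT NASH replicate 2 (0.064). With sex and length slope as terms it stood at -2.24 (edgeR adjusted p = 0.0113), in males alone, with 1 WT NASH library, at -3.90 (edgeR adjusted p = 0.0101), and without the 6 libraries of low length slope at -1.44 (edgeR adjusted p = 0.00832). With the slope alone as a term it was -1.80 (edgeR adjusted p = 0.00347). The shares of all genes called in these 4 fits were 5.01%, 0.596%, 4.88% and 12.3%, against 1.11% with sex as a term and 2.74% with the 2 groups alone. DESeq2 called 8.76%, with Alas1 the 1 member. The adjusted p ran from 0.00125, by DESeq2, to 0.105 over these alternatives.

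In KO liver the Alas1 level overlapped that of WT chow on either diet. KO chow was at 913, 696, 591, 731 and 619 CPM, and KO NASH at 696, 657, 457, 729 and 624 CPM. The groups overlapped, with means of 709.9 ± 126.9 and 632.7 ± 106.1 CPM (SD, n = 5 each), and the difference of -0.17 (SE 0.363) was not called (edgeR adjusted p = 0.803). KO chow overlapped WT chow as well (edgeR adjusted p = 0.741, log2 fold change -0.25, SE 0.363).

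On the NASH diet all 5 KO libraries lay above all 5 WT libraries for Alas1, which 7.67% of tested genes did. The log2 fold change was 1.09 (SE 0.367), a level 2.13 times that of WT, with an edgeR adjusted p of 0.0637, above the threshold of 0.05. DESeq2 called it (adjusted p = 0.0277), as did the fits with the length slope (1.01, edgeR adjusted p = 0.0427), with sex and slope (1.33, 0.0376), without the 6 low-slope libraries (0.82, 0.0182) and without WT NASH replicate 1 (1.29, 0.0422). Fits that left it uncalled included those of the 2 groups alone (1.09, edgeR adjusted p = 0.0967), with a sex term (1.38, 0.0951) and with the most alike pair, KO NASH replicates 1 and 5, summed (1.08, 0.118). Where it was called, the shares of all genes called were 12.9% by DESeq2 and, in the order of the fits above, 16.5%, 10.5%, 20.3% and 9.71%. Males alone, with 1 WT library, gave 3.47 (edgeR adjusted p = 0.00456, with 13% of genes called), and females alone, with 1 KO library, 0.88 (edgeR adjusted p = 0.233). Within females the 4 WT NASH libraries were at 223 to 452 CPM and the KO NASH library at 657 CPM. Within males the WT NASH library was at 57.7 CPM and the 4 KO NASH libraries at 457 to 729 CPM. The interaction, by which the genotype difference under the NASH diet exceeded the one under chow, was 1.34 (SE 0.515) and was not called (unadjusted p = 0.0169, edgeR adjusted p = 0.441), where 0.139% of all genes were.

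**Figure D2:**
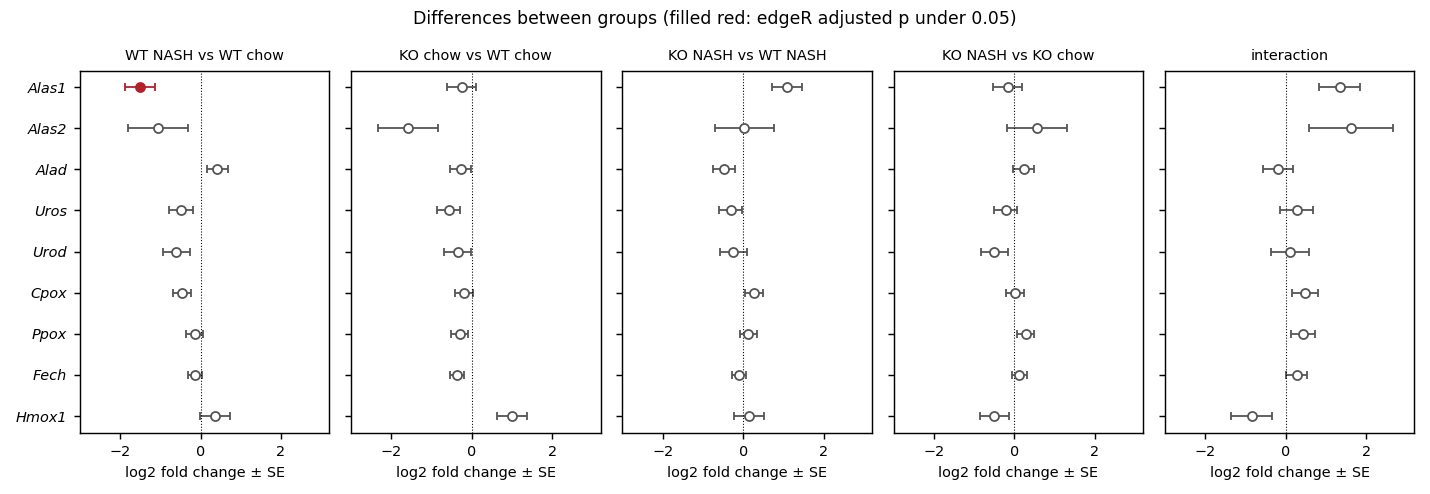
Difference of each heme gene in the 4 comparisons and the interaction (x axis, log2 fold change with its standard error; y axis, genes), from 1 edgeR fit to 20 libraries; filled red points have an adjusted p under 0.05. The 1 filled point is Alas1 in WT NASH against WT chow, at -1.51.

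Alas1 RNA is known to cycle over the day, and genes of the circadian clock also differed between the groups. The labels give no time of collection. Arntl, which encodes the clock activator BMAL1, ranged over 1.59 to 4.80 CPM (WT chow), 2.07 to 4.14 (KO chow), 5.46 to 11.5 (KO NASH) and 12.8 to 28.1 CPM (WT NASH). It rose in WT NASH against WT chow (log2 fold change 2.74, edgeR adjusted p = 9.4e-05) and was lower in KO NASH than in WT NASH (-1.42, edgeR adjusted p = 0.0088). Npas2, another clock activator, was called higher in WT NASH (edgeR adjusted p = 0.00206), at 1.63 to 10.5 CPM against 0 to 0.65 CPM in WT chow. At so low a chow level no fold is given. Npas2 could pass the low-count filter only with NASH libraries, so its call is no support. Dbp, a clock output, ranged over 0.71 to 31.8 CPM (WT NASH), 24.9 to 66.9 (KO chow), 45.4 to 84.2 (KO NASH) and 32.4 to 91.8 CPM (WT chow), and was higher in KO NASH than in WT NASH (1.92, edgeR adjusted p = 0.036). Nr1d1, the heme-binding repressor REV-ERB alpha, had 55.5 to 109 CPM on the NASH diet in WT, against 8.66 to 73.2 on chow, and was not called. Of the 13 clock genes tested, 2 (Arntl and Npas2) were called higher in WT NASH against WT chow, and 2 higher and 1 lower in KO NASH against WT NASH. Of all genes, 2.69% were called higher in the former, and 4.9% higher and 4.74% lower in the latter. The list medians were -0.25 and 0.08, against 0.01 and 0 over all genes. The third called in the latter comparison was Ciart, higher in KO NASH (1.79, edgeR adjusted p = 0.0221). The part of the clock in the Alas1 differences was not tested. Nor was the part of sex in the clock differences, which come from the fit without a sex term.

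**Figure D3:**
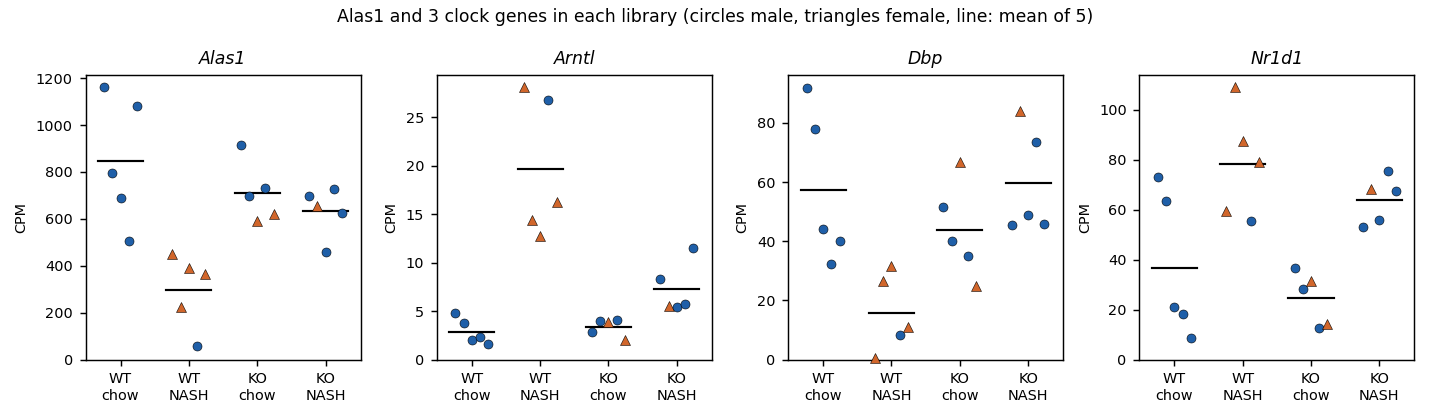
Alas1 and the clock genes Arntl, Dbp and Nr1d1 in each library (y axes, CPM from 0; x axes, groups of 5 libraries; circles male, triangles female, line the mean). The WT NASH libraries have Alas1 at 57.7 to 452 CPM and Arntl at 12.8 to 28.1 CPM, the highest Arntl of the 4 groups.

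Other regulators known to act on Alas1 were read from a list of 14, all tested. Foxo1, a fasting-signal factor, rose in WT NASH, from 36.1 ± 11.6 to 93.6 ± 20.9 CPM (log2 fold change 1.37, edgeR adjusted p = 0.00664), and was at 43.6 ± 7.46 CPM in KO NASH (-1.10 against WT NASH, edgeR adjusted p = 0.0176). In WT it moved opposite to Alas1. The fit behind these values had no sex term, and WT NASH held 4 females where WT chow held males alone. In the model with sex, Foxo1 was not called for sex (-0.12 in males against females, edgeR adjusted p = 0.999). Cyp2b10, the usual readout of the drug-sensing receptor CAR, fell in KO chow, to 92.0 ± 69.3 from 313 ± 122 CPM (-1.77, edgeR adjusted p = 0.0304; Cyp2b genes are a close family and their counts are uncertain). KO chow held 2 females and WT chow none, and Cyp2b10 was itself called higher in males (log2 fold change 1.46, edgeR adjusted p = 0.0418). The part of sex in its fall in KO chow was not tested. No other gene of the list was called in the 4 comparisons or the interaction. The list medians were -0.15 in WT NASH against WT chow and 0.10 in KO NASH against WT NASH, beside 0.01 and 0 over all genes.

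The genes whose log2 CPM most resembled that of Alas1 over the 20 libraries, of 8963 with a mean of at least 5 CPM, were Cyp4a10 (Pearson r = 0.903), Atg16l1 (0.889), Cyp4a14 (0.888), Usp2 (0.888) and Tmem186 (0.874). Cyp4a10 and Cyp4a14 encode fatty acid hydroxylases of 1 close family, and Usp2 encodes a deubiquitinating enzyme. The libraries share their groups, so these values describe likeness and carry no test.

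Alas2 (ENSMUSG00000025270.13, chrX:150547375-150570638, plus strand) separated the mice by sex. Replicates 1 to 5 of WT chow were at 56.8, 60.5, 87.4, 83.1 and 93.6 CPM, and those of WT NASH at 10.5, 7.89, 10.5, 150 and 6.52 CPM. KO chow was at 38.0, 34.6, 8.12, 37.6 and 8.08 CPM, and KO NASH at 34.2, 10.3, 37.8, 70.7 and 33.7 CPM. The 7 female libraries were the 7 lowest, and the 13 male libraries began at 33.7 CPM. Such a gap with males higher was seen in 0.215% of tested genes. The lowest library, WT NASH replicate 5, still had 101 counts. With group and sex in the model, Alas2 was higher in males by 2.77 on the log2 scale (SE 0.282, edgeR adjusted p = 3.68e-06), 6.82 times the female level. It was called without any single library, at 2.15 to 3.02, and with the slope added (2.69, edgeR adjusted p = 2.37e-07, with 2.36% of genes called). This test was added after the pattern had been seen. Alas2 was the 1 member of 9 called for sex, where 1.02% of all genes were. The other 8 members, from -0.54 for Alad to 0.58 for Hmox1, were not called.

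The comparisons of Alas2 between groups moved with the sexes that entered them. For the NASH diet in WT, all libraries gave -1.06 (SE 0.743, edgeR adjusted p = 0.41). Leaving out the male, WT NASH replicate 4, gave -3.12 (edgeR adjusted p = 0.00107, with 11.7% of genes called), and leaving out the 6 low-slope libraries, that one included, gave -2.72 (0.0142). With sex as a term it was 0.05 (0.973), and in males alone 0.95 (0.285). KO chow lay below WT chow in all 5 libraries, as did 2.65% of tested genes, by -1.59 on the log2 scale (SE 0.751, edgeR adjusted p = 0.248). Among males the 3 KO chow libraries, at 34.6 to 38.0 CPM, were below the 5 WT chow libraries, at 56.8 to 93.6 CPM, and in males alone the difference was called (-1.04, edgeR adjusted p = 0.0441, with 6.23% of genes called). With sex as a term it was -0.80 (edgeR adjusted p = 0.196). In the pooled fit without WT NASH replicate 4 the KO chow difference was called too (-1.59, edgeR adjusted p = 0.0362, with 7.53% of genes called). KO NASH against WT NASH was 0.03 (SE 0.736, edgeR adjusted p = 0.987) over all libraries and 2.07 without WT NASH replicate 4 (0.0165, with 6.6% of genes called) or without the 6 low-slope libraries (0.00988). It was -0.68 with sex as a term (0.228) and -1.73 in males alone (0.0115), where WT NASH was the 1 library at 150 CPM and KO NASH the 4 at 33.7 to 70.7 CPM. The interaction was 1.62 (SE 1.05, edgeR adjusted p = 0.755), and once WT NASH replicate 4 was left out 3.66 (0.0118), and -0.69 in males alone (0.562). The female libraries lay close together whatever their group: 6.52 to 10.5 CPM in the 4 of WT NASH, 8.08 and 8.12 in the 2 of KO chow and 10.3 in the 1 of KO NASH.

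Since ALAS2 is the enzyme of red cell precursors, red cell RNA was set beside it. The summed globin genes ranged on chow over 24.6 to 184 CPM (WT) and 54.9 to 144 CPM (KO), and on the NASH diet over 17.1 to 28.8 CPM (WT) and 12.3 to 30 CPM (KO). The part of red cell RNA in the Alas2 levels was not tested. Female libraries had Alas2 at 6.52 to 10.5 CPM with globin sums of 17.1 to 91.6 CPM. Male libraries had Alas2 at 33.7 to 150 CPM with globin sums of 12.3 to 184 CPM. Hbb-bs, a beta-globin, fell on the NASH diet in WT (log2 fold change -2.31, edgeR adjusted p = 0.00311) and KO (-2.57, edgeR adjusted p = 0.00468), and so did Hbb-bt (-2.16, 0.0128, and -2.0, 0.0302). Hbb-bs and Hbb-bt are near-identical copies, so the split of reads between them is uncertain. Of 10 red cell markers 9 were in the table and 6 passed the filter. Of the defining membrane and precursor markers, Slc4a1 had at most 19 counts in a library and was at 0 in 5, and Epb42 had at most 1 and was at 0 in 16.

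**Figure D4:**
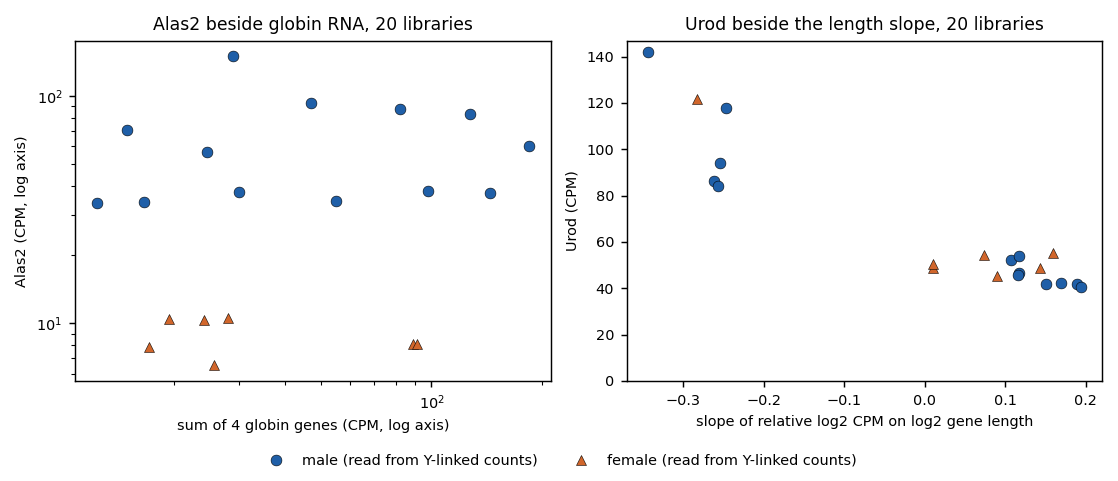
Left, Alas2 against the summed globin genes (both CPM, log axes) in 20 libraries; right, Urod (CPM, from 0) against the slope of relative log2 CPM on log2 gene length; circles male, triangles female. Alas2 is 6.52 to 10.5 CPM in females (globin sums 17.1 to 91.6 CPM) and 33.7 CPM or more in males (globin sums 12.3 to 184 CPM), and Urod is 84.2 to 142 CPM in the 6 libraries of low slope and 40.5 to 55.3 CPM in the other 14.

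The 5 genes most like Alas2 over the 20 libraries, of 11339 with a mean of at least 1 CPM, were Mup1, Eif2s3y, Uty, Nat8f5 and Mup20. Eif2s3y and Uty are Y-linked, and Mup1 and Mup20 encode male-biased urinary proteins of a close family whose counts are uncertain. No pooled correlation is given because the libraries fall into 2 clusters by sex.

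The 6 genes for the steps from aminolevulinate to heme were not called. None passed the edgeR threshold in any of the 4 comparisons or the interaction, and none had an unadjusted p under 0.05. DESeq2 called none of them either. Over all 9 members the median log2 difference was -0.46 in WT NASH against WT chow, -0.30 in KO chow against WT chow, 0.03 in KO NASH against WT NASH and 0.01 in KO NASH against KO chow. The medians over all tested genes were 0.01, 0, 0 and -0.02.

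Alad (chr4:62509169-62519918) encodes the second enzyme, which joins aminolevulinate into porphobilinogen. Its ranges on chow, 44.5 to 82.3 CPM (WT) and 41.9 to 70.0 CPM (KO), overlapped those on the NASH diet, 55.8 to 113 CPM (WT) and 35.9 to 101 CPM (KO). Its largest difference was -0.47 in KO NASH against WT NASH (SE 0.269, edgeR adjusted p = 0.288), which was 0.03 in males alone and 0.05 in females alone.

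Uros (chr7:133686243-133710072) and Urod (chr4:116989965-116994413) encode the enzymes that close the ring and trim its side chains. Urod in WT chow was at 46.7, 45.6, 118, 86.2 and 142 CPM, and in WT NASH at 55.3, 48.8, 48.6, 84.2 and 50.5 CPM. KO chow had 41.8, 42.0, 45.3, 93.9 and 122 CPM, and KO NASH 42.2, 54.4, 52.3, 54.0 and 40.5 CPM. It was high in the 6 libraries in which short genes were over-represented, at 84.2 CPM or more, and at 55.3 CPM or less in the other 14. Of the 6, 5 were on chow, and KO NASH held none. Uros was at 17.9 to 35.8 CPM in the 6 and 8.61 to 18.8 CPM in the other 14. Lengths here count all annotated exons and need not be those of the transcripts present. Uros has 3576 bases by that count and Urod 2591 bases. For the members with fewer bases than Urod, the ranges in the 6 overlapped those in the other 14. Hmox1 (1751 bases) was at 15.1 to 52.9 CPM in the 6 and 24.8 to 94.5 CPM in the other 14. Alad (1871 bases) was at 44.5 to 82.3 and 35.9 to 113 CPM, and Alas2 (2403 bases) at 8.08 to 150 and 6.52 to 70.7 CPM. These ranges cannot show the part of gene length, since transcript lengths were not used. The part of the length slope in these levels was not tested beyond the fits given here. On the diet in WT, the Urod difference was -0.61 (SE 0.336, edgeR adjusted p = 0.289) over all libraries and 0.15 without the 6 (edgeR adjusted p = 0.586). That of Uros was -0.49 (SE 0.293, edgeR adjusted p = 0.335) and 0.06 (0.891). Between genotypes on chow, Uros stood at -0.58 (SE 0.293, edgeR adjusted p = 0.288), and at -0.89 (0.0462, with 8.32% of genes called) without KO chow replicate 5.

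Cpox (chr16:58670292-58717636) and Ppox (chr1:171275990-171281186) encode the 2 oxidases that follow. Cpox ranged on chow over 121.5 to 193.3 CPM (WT) and 107.8 to 176.5 CPM (KO), and on the NASH diet over 69.3 to 158.8 CPM (WT) and 119.4 to 191.5 CPM (KO). Its lowest library was WT NASH replicate 4, which was also the lowest for Alas1. The difference in WT NASH against WT chow was -0.46 (SE 0.229, edgeR adjusted p = 0.242), and it was called with the length slope as a term (-0.69, edgeR adjusted p = 0.0137) and with sex and slope (-0.82, 0.0317). Ppox was at 7.94 to 17.0 CPM in all libraries. It differed by 0.28 between KO NASH and KO chow (SE 0.214, edgeR adjusted p = 0.429). That difference was called with the slope as a term (0.54, 0.0346), with sex and slope (0.57, 0.0223) and without the 6 low-slope libraries (0.55, 0.0334), by edgeR adjusted p. The shares of all genes called in those fits were 6.37%, 9.37% and 7.69%.

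Fech (chr18:64452914-64490251) encodes ferrochelatase, which puts iron into the ring. It ranged on chow over 109.6 to 210.1 CPM (WT) and 96.4 to 162.8 CPM (KO), and within these limits on the NASH diet, at 131 to 149.5 CPM (WT) and 118.5 to 150.9 CPM (KO). Its largest difference was -0.37 in KO chow against WT chow (SE 0.183, unadjusted p = 0.058, edgeR adjusted p = 0.281).

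Hmox1 (ENSMUSG00000005413.8, chr8:75093621-75100589, plus strand) had its largest difference between genotypes on chow. The WT chow libraries were at 24.8, 65.7, 15.1, 24.7 and 16.6 CPM, and the KO chow libraries at 94.5, 68.0, 46.1, 52.9 and 32.5 CPM. Of the WT chow libraries, 4 lay below all KO chow libraries, and replicate 2 lay among them. The means were 29.4 ± 20.8 and 58.8 ± 23.7 CPM (SD, n = 5 each), and the log2 fold change of 1.00 (SE 0.37) was not called (unadjusted p = 0.0137, edgeR adjusted p = 0.126). It was called without WT chow replicate 2 (1.54, edgeR adjusted p = 0.0103, with 5.04% of genes called) and with sex and slope as terms (1.07, 0.0188, with 13.8%). It was not called in the other fits, with 0.64 (edgeR adjusted p = 0.438) without the 6 low-slope libraries and 1.03 (0.256) with the 2 groups alone. No member was called by edgeR in KO chow against WT chow, where 5.53% of all genes were. An unadjusted p under 0.05 was reached by 2 members, Alas2 and Hmox1, and DESeq2 called 0 members and 8.07% of all genes.

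On the NASH diet the Hmox1 ranges of the genotypes overlapped. WT NASH was at 28.4 to 46.6 CPM and KO NASH at 24.9 to 70.8 CPM, 0.15 apart on the log2 scale (SE 0.367, edgeR adjusted p = 0.842). In this comparison edgeR called 0 of 9 members, against 9.65% of all genes. An unadjusted p under 0.05 was reached by 1 member, Alas1, which was also the 1 that DESeq2 called. In KO NASH against KO chow, where 3.29% of genes were called, edgeR called 0 members, 0 had an unadjusted p under 0.05 and DESeq2 called 0 (8.18% of all genes). For the interaction edgeR called 0 members, 1 (Alas1) had an unadjusted p under 0.05, and DESeq2 called 0 (1.08% of all genes).

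Kupffer cells and other macrophages are a source of Hmox1, and their markers were set beside it. The 11 macrophage markers summed on chow to 291 to 1020 CPM (WT) and 448 to 1220 CPM (KO), and on the NASH diet to 444 to 850 CPM (WT) and 320 to 442 CPM (KO). In KO chow against WT chow 1 of the 11 was called higher, Cd68 (log2 fold change 1.03, edgeR adjusted p = 0.036), where 3.03% of all genes were. The list median was 0.40 beside 0 over all genes. WT chow replicate 2, the highest for Hmox1 in its group, had the highest globin sum of all libraries, 184 CPM. The part of macrophages or blood in the Hmox1 difference was not tested.

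Srxn1, a target of the stress factor NRF2 like Hmox1, was called higher in KO on each diet. On chow the KO mean was 122 ± 39.7 CPM and the WT mean 59.0 ± 14.3 CPM, with overlapping ranges of 63.3 to 153 and 41.5 to 74.1 CPM (log2 fold change 1.05, edgeR adjusted p = 0.0109). On the NASH diet they were 81.1 ± 14.5 and 32.2 ± 2.78 CPM, with no overlap (1.33, edgeR adjusted p = 0.00135). It fell in WT on the NASH diet (-0.87, edgeR adjusted p = 0.0275). Of the 9 NRF2 genes tested out of 10, 2 were called higher in KO on each diet and none lower, where 3.03% of all genes were called higher on chow and 4.9% on the NASH diet. The second was Gsta1, which stayed at or below 0.297 CPM in all WT libraries and reached 2.60 CPM in KO NASH and 1.33 CPM in KO chow, so that no fold is given. Gsta1 could pass the low-count filter only through KO libraries, so its calls are no support. Without it, Srxn1 was the 1 gene of the list called higher. In WT NASH against WT chow the second called gene was Gstm1, a glutathione transferase, at 591 ± 194 against 231 ± 135 CPM (1.36, edgeR adjusted p = 0.0465). Gsta1 and Gstm1 belong to families of close copies. The fit for these NRF2 genes had no sex term. The list medians were 0.16 and 0.09 in the genotype comparisons on chow and the NASH diet, beside 0 over all genes. The genes most like Hmox1 over the 20 libraries were Ero1l (Pearson r = 0.84), an oxidase of protein folding, and Ibtk (0.803), Got1 (0.791), Tmx4 (0.786) and Lnp (0.785).

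The remaining enzymes and carriers of heme were read from a list of 19, of which 17 were tested. Clpx, a mitochondrial protein unfoldase that acts on aminolevulinate synthase, rose on the NASH diet in WT and in KO. Its mean went from 109 ± 26.4 to 231 ± 40.1 CPM in WT and from 82.1 ± 14.3 to 227 ± 94.6 CPM in KO. The log2 fold changes on the diet were 1.08 in WT (edgeR adjusted p = 0.0154) and 1.47 in KO (edgeR adjusted p = 0.00639). Abcb10, a mitochondrial carrier needed for heme synthesis, fell in KO chow, to 13.9 ± 2.74 from 21.9 ± 2.99 CPM (-0.66, edgeR adjusted p = 0.0398). Slc48a1, which carries heme out of the lysosome, was higher in KO NASH, at 50.1 ± 9.55 against 33.2 ± 4.81 CPM in WT NASH (0.59, edgeR adjusted p = 0.0253). The other list members were not called in the comparisons. Each of the 4 comparisons thus had 1 of the 17 called. Of all genes, 5.93% were called in WT NASH against WT chow and 5.53% in KO chow against WT chow. The shares were 9.65% in KO NASH against WT NASH and 3.29% in KO NASH against KO chow. Sex was not in the model for these differences. The list medians lay between -0.22 and -0.02.

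Bilirubin handling and heme scavenging were read from 11 genes, all tested, of which 1 was called higher in each of WT NASH against WT chow (Gstm1), KO chow against WT chow and KO NASH against WT NASH (Gsta1 in both). Of all genes, 2.69%, 3.03% and 4.9% were called higher in these comparisons. Gsta1 could pass the low-count filter only through KO libraries, so its calls are no support for a change in this list. The list medians were -0.10, 0.11 and -0.55, beside 0.01, 0 and 0 over all genes. Ugt1a1, Abcc2, Hpx and Hp, for bilirubin conjugation, its export, and the capture of free heme and hemoglobin, were not called in any of these.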

How the data were processed

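The members and gene lists were chosen with earlier results of these data known. The deposited table holds whole-number raw counts, with 1 row per gene symbol and 1 column per library. HISAT2 2.0.4 and GRCm38 are named in the submitters' processing notes. Not given in the sources used here are the counting program, the annotation and strand use. Columns call the NASH diet HFD and were matched to the titles by genotype, diet and number.

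Genes were tested with edgeR 4.0.16 under R 4.3.3, using filterByExpr (minimum count 10), TMM scaling, 1 fit with 4 group means over 20 libraries, quasi-likelihood F tests, and Benjamini-Hochberg adjustment over 14440 genes, called under 0.05. These genes held 99.91% of counts. SEs come from the unshrunk log2 fold change and F. Male libraries had at least 100 counts over 4 Y-linked genes. The length slope used 9520 genes. Lengths, from GENCODE M21 on GRCm38, matched 93.5% of tested genes. Alternatives were RLE, DESeq2 1.42.0, 2 other filters, the 2 groups alone, a replicate block, sex and slope terms, 1 sex alone (a lone library of a group is then assumed to vary like the other groups), KO NASH replicates 1 and 5 summed, and each library left out. Leaving out the 6 low-slope libraries and testing sex itself were added after seeing the data. The procedure was tested on simulated counts. Named genes are the 9 members, at most 4 called genes per list and comparison, and for Alas1, Alas2 and Hmox1 the 5 genes of highest Pearson correlation of log2(CPM + 0.5), predicted genes passed over. Hpx, Hp, Abcc2, Ugt1a1 and Nr1d1 were named outside that rule. The results of some single genes are left out of the text, while list counts include them. At these depths 1 CPM is about 10 to 21 reads before scaling. P-values measure the spread between mice of a group.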

Additional observations from a re-analysis of the deposited data

Results flagged for a closer look

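Of 36 sets of 5 libraries (9 genes in 4 groups), 3 had 1 library far from the rest, by a gap over 0.71 of the group's range, which chance alone does in about 1 of 20 groups. In WT NASH, Alas2 was at 150 CPM in replicate 4, the nearest library being at 10.5 CPM, and this is the male of a group with 4 females. In the same replicate Urod was at 84.2 CPM, with the nearest at 55.3 CPM, and this library is 1 of the 6 of low length slope. In WT chow, Hmox1 was at 65.7 CPM in replicate 2, with the nearest at 24.8 CPM, and this library had the highest globin sum, 184 CPM.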

How the results depend on the processing

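The number of members called moved as follows. For WT NASH against WT chow it was 1, and 0 with only the 2 groups compared or sex as a term, 2 with the length slope, with sex and slope or without the 6 low-slope libraries, and 0 to 2 with single libraries left out. The shares of all genes called were 5.93% in the main fit, 2.74% with the 2 groups and 1.11% with sex. They were 12.3% with the slope, 5.01% with sex and slope and 4.88% without the 6. Without WT NASH replicate 4, where Alas2 was called too, the share was 11.7%. For KO chow against WT chow it was 0, and 1 with sex and slope or in males alone, and 0 to 1 with single libraries left out. For KO NASH against WT NASH it was 0, and 1 by DESeq2, with the replicate block, the slope, or sex and slope, 2 in males alone and without the 6 low-slope libraries, and 0 to 1 with single libraries left out. The shares of all genes called in this comparison were 9.65% in the main fit, 12.9% by DESeq2 and 10.1% with the replicate block. They were 16.5% with the slope, 10.5% with sex and slope and 20.3% without the 6. Without WT NASH replicate 1 or 4 they were 9.71% and 6.6%. In KO chow against WT chow the main fit called 5.53% and that with sex and slope 13.8%. Leaving out WT chow replicate 2, WT NASH replicate 4 or KO chow replicate 5 gave 5.04%, 7.53% and 8.32% there. For KO NASH against KO chow it was 0 (3.29% of all genes), and 1 with the slope (6.37%), with sex and slope (9.37%), or without the 6 (7.69%). For the interaction it was 0 (0.139% of all genes), and 0 to 1 with single libraries left out. The 1 was Alas2 without WT NASH replicate 4, a fit for which the share of all genes is not given here.

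Of 540 values of the 45 member differences under 13 settings, 46 had the other sign, 1 of them with an adjusted p under 0.05 (Alas2, KO NASH against WT NASH, males alone). In WT NASH against WT chow, Alas2 became 0.05 with sex, 0.18 with sex and slope and 0.95 in males alone, Alad -0.04 with sex and -0.28 in males, Ppox 0.11 with slope, 0.10 in males and 0.36 without the 6, and without the 6 Uros became 0.06, Urod 0.15 and Hmox1 -0.27. In KO chow against WT chow, Ppox became 0.01 without the 6. In KO NASH against WT NASH, Alas2 became 0 with the 2 groups alone, -0.68 with sex, -0.42 with sex and slope and -1.73 in males, Hmox1 -0.23, -0.10 and -0.46 with sex, slope and both and -0.29 in females, Alad 0.03 in males and 0.05 in females, Urod 0.11 with slope, 0.18 with both and 0.10 in females, Uros 0.11 with both, Cpox -0.06 in females and Ppox -0.15 in males. In KO NASH against KO chow, Uros became 0.22, 0.30, 0.19 and 0.29 and Urod 0.09, 0.11 and 0.18 with slope, both, in males (Uros) and without the 6. Cpox there was 0.01, and -0.01 with RLE or DESeq2, 0 without the filter, -0.18 with slope, -0.14 with both and -0.21 without the 6. For the interaction, Alad became 0.33 with sex and 0.35 with both and in males, Alas2 -0.69 and Urod -0.25 in males. With single libraries left out, 21 of 900 values changed sign, for Alas2 (-0.33 to 2.07) and Hmox1 (-0.13 to 0.29) in KO NASH against WT NASH, Uros (-0.38 to 0.09) and Cpox (-0.11 to 0.08) in KO NASH against KO chow, and Urod in the interaction (-0.14 to 0.40). The causes were not tested.

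Replicate numbers did not pair the mice: of 30 same-numbered pairs 13 had a correlation of deviations over 0.1, the range was -0.41 to 0.52, and 6 of 20 libraries were most like one of their own number. With the replicate block Alas1 in KO NASH against WT NASH was called (1.22, edgeR adjusted p = 0.041), and no other member's call changed.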

Other observations

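Among the genes of the 8 lists read beside the members, 2 were called for sex with group in the model, where 1.02% of all tested genes were. Slco1a1, a liver uptake transporter of organic anions, was higher in males by 5.76 on the log2 scale (edgeR adjusted p = 0.000182), and Cyp2b10 by 1.46 (edgeR adjusted p = 0.0418). Of the clock, NRF2, red cell, macrophage and hepatocyte lists, no gene was called for sex.

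Of the 11 macrophage markers, Cd68, a lysosomal protein, rose in WT NASH against WT chow (log2 fold change 1.01, edgeR adjusted p = 0.038). In KO NASH against WT NASH, Gpnmb, a marker of lipid-laden macrophages, was called higher (edgeR adjusted p = 0.00177). It was at 3.8 to 16.2 CPM in KO NASH and 0.129 to 2.06 CPM in WT NASH. The WT NASH median of 0.323 CPM lay near the floor, so no fold is given. Timd4, a marker of resident Kupffer cells, was lower in KO NASH than in WT NASH (-1.42, edgeR adjusted p = 0.0408). Spic, a factor of heme-handling macrophages, fell in KO on the NASH diet (-3.05, edgeR adjusted p = 0.0324). Its median went from 4.41 CPM (range 2.78 to 55.9) to 1.62 CPM (range 1.59 to 2.20). The KO chow mean of 15.3 CPM lay far above that median, so the size of the fold rests largely on the highest library. The list medians in these 3 comparisons were -0.06, -0.49 and -1.24, beside 0.01, 0 and -0.02 over all genes. No sex term was used in them.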
